A study of Mus musculus with 2 samples.

Results

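The 7 genes described here, *Sfrp1*, *Sfrp2*, *Sfrp4*, *Frzb*, *Dkk2*, *Dkk3* and *Wif1*, encode secreted antagonists of Wnt signalling, and their transcripts were measured in the stromal cells of mouse periodontal tissue. They were taken by gene symbol from the 31053 genes of 2 single-cell RNA sequencing (scRNA-seq) count tables. The choice was made with earlier results of these data known. The ligature-induced periodontitis (LIP) library was made 7 days after a ligature had been tied around a molar, and the control library came from mice without treatment. Both were from wild-type C57BL/6 mice aged 8 weeks, and each pooled 5 mice, from which gingival tissue and cells at the surface of the alveolar bone were taken. As each condition had 1 library and cells could not be assigned to mice, library and condition cannot be told apart and no test was made. All intervals are exact 95% intervals that cover counting error only.

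Wnt proteins signal through Frizzled receptors with LRP co-receptors and, in the canonical branch, stabilize β-catenin. In bone, this branch favours the formation and activity of osteoblasts, and secreted antagonists restrain it. The secreted Frizzled-related proteins (SFRPs, among them FRZB) and WIF1 bind Wnt proteins outside the cell. DKK2 acts on the LRP co-receptors, whereas DKK3 is a divergent member of the Dickkopf family whose role in Wnt signalling is less settled.

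After quality control, 936 LIP cells with 10560109 transcripts counted by molecular identifier (UMIs) and 883 control cells with 13407122 UMIs were kept, at a median of 5595 and 10845 UMIs per cell. Among the kept cells 1 cell barcode was found in both libraries. Cells were clustered with the 7 genes and 73 further Wnt pathway genes held out, so that no class was defined by them. The stromal cluster comprised 3 sub-clusters, to which 64 LIP and 123 control cells belonged. Cells with bone genes (32 LIP and 20 control cells) were led by *Ibsp*, *Bglap*, *Bglap2* and *Mmp13*. Cells without bone genes (25 LIP and 92 control cells) were fibroblast-like and led by *Clec3b*, *Inmt*, *Mfap4* and *Dpt*. Cartilage-gene cells (7 LIP and 11 control cells) were led by *Cytl1*, *Myoc*, *Chad* and *Cnmd*. *Col1a1* stood at 59031, 17454 and 1371 CPM (UMIs of the gene summed over a group and scaled to a fixed total of UMIs) in these groups of the LIP library and at 27509, 7730 and 4751 CPM in the control library. *Ptprc*, the pan-leukocyte marker, was at most 8.96 CPM in any of them.

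The label of bone genes fitted the libraries unequally. In the bone-gene sub-cluster 28 of 32 LIP cells and 13 of 20 control cells held at least 2 genes of a 15-gene bone list, against 8 of 25 and 12 of 92 fibroblast-like cells. No gene of the list was found in 3 of the 20 control cells, or in 8 of 25 LIP and 51 of 92 control fibroblast-like cells. *Ibsp* (bone sialoprotein) was at 9078 CPM in the LIP library and at 231 CPM in the control library, where 3 of the 20 cells held it. *Phex* was the only gene of the list that was higher without bone genes in the control library. It had 0 UMIs with bone genes and 69 UMIs, in 15 of 92 cells, without. *Postn* (periostin, abundant in the periodontal ligament) was found in 29 of 32 and 18 of 20 cells, and *Aspn*, likewise known from the ligament, in 19 of 32 and 16 of 20. Fibroblast-like cells also held them, *Postn* in 21 of 25 and 52 of 92 and *Aspn* in 16 of 25 and 45 of 92. A list of 6 ligament genes summed to 8549 and 8544 CPM with and to 6055 and 3740 CPM without bone genes. Of these, *S100a4* (978 against 1162 CPM) and *Scx* (68.9 against 82.4 CPM) were lower with bone genes in the LIP library. The bone-gene sub-cluster of the control library thus held few cells with bone matrix transcripts, and results on it are also given for its parts.

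The genes lie on 6 chromosomes, at chr8:23411502-23449632 (*Sfrp1*), chr3:83766321-83774316 (*Sfrp2*), chr13:19623104-19632994 (*Sfrp4*), chr2:80411970-80447625 (*Frzb*), chr3:132085292-132180304 (*Dkk2*), chr7:112116017-112159057 (*Dkk3*) and chr10:121033960-121100650 (*Wif1*) of GRCm38. *Frzb* and *Dkk3* are on the minus strand and the others on the plus strand. One of the 7, *Sfrp2*, overlaps another annotated gene, the antisense *Gm26771*, and whether counting used strand is not given in the sources used here.

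Bases upstream of the gene start are shown for *Wif1*, which separated the sub-clusters most, for *Sfrp2*, which did so in the LIP library, and for *Dkk2*, which had no UMI in the cells rich in bone matrix transcripts. The sequences are from RefSeq (GRCm38.p6), and the promoter table used here matched 4 of the 7 genes, *Frzb* being the fourth. The windows are on the plus strand, at chr10:121033754-121033959, chr3:83766071-83766320 and chr3:132085042-132085291, and end before the annotated start. Capitals mark the letters TATAAA on either strand.
Wif1: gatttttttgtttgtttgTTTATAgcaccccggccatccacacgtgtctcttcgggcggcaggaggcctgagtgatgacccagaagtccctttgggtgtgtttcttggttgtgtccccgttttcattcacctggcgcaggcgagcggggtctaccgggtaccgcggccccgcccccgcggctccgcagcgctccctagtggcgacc
Sfrp2: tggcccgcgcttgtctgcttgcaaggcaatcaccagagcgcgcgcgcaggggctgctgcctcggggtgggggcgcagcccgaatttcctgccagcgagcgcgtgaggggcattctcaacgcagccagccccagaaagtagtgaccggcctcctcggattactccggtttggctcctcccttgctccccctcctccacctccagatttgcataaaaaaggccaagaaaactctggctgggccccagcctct
Dkk2: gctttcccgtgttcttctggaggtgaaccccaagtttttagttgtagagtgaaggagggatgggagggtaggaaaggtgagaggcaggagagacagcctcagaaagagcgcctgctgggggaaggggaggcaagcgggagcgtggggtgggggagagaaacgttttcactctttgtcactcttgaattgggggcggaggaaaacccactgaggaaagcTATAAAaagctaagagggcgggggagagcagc
These letters began 32 bases before the RefSeq start of *Dkk2* and, on the minus strand, lay 232 to 227 bases before that of *Wif1*. They occurred in 12.4% of the 250-base windows of all 32851 promoters of the table and in 9.38% of windows cut to the 206 bases used for *Wif1*. The TCF/LEF core CTTTGA and the RUNX core TGTGGT, searched on both strands, were in none of the 3 windows, and were in 13.8% and 14.0% of all 250-base windows. The windows of *Wif1*, *Sfrp2* and *Dkk2* held 17, 16 and 7 CG dinucleotides.

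Stroma held most UMIs of *Sfrp2*, *Sfrp4*, *Wif1* and *Dkk2*. In the LIP library stromal cells, 64 of the 936 cells, held 98.5% of *Sfrp2*, 96.9% of *Sfrp4* and 84.2% of *Wif1* UMIs, and in the control library they held 95.3%, 89.8% and 95.3%. For *Dkk2* the shares were 57.0% and 94.4%. *Sfrp1* (45.5% and 42.1%), *Dkk3* (57.0% and 41.6%) and *Frzb* (49.5% and 77.4%) were also found elsewhere. All 7 genes together gave 2275 CPM (2176–2377) in LIP cells with bone genes and 1184 CPM (1090–1284) in those without, and 3516 CPM (3292–3752) and 1461 CPM (1386–1538) in the control library. At least 2 of the genes were found in 28 of 32 and 16 of 25 LIP cells and in 20 of 20 and 53 of 92 control cells, in the same order.

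**Figure D1:**
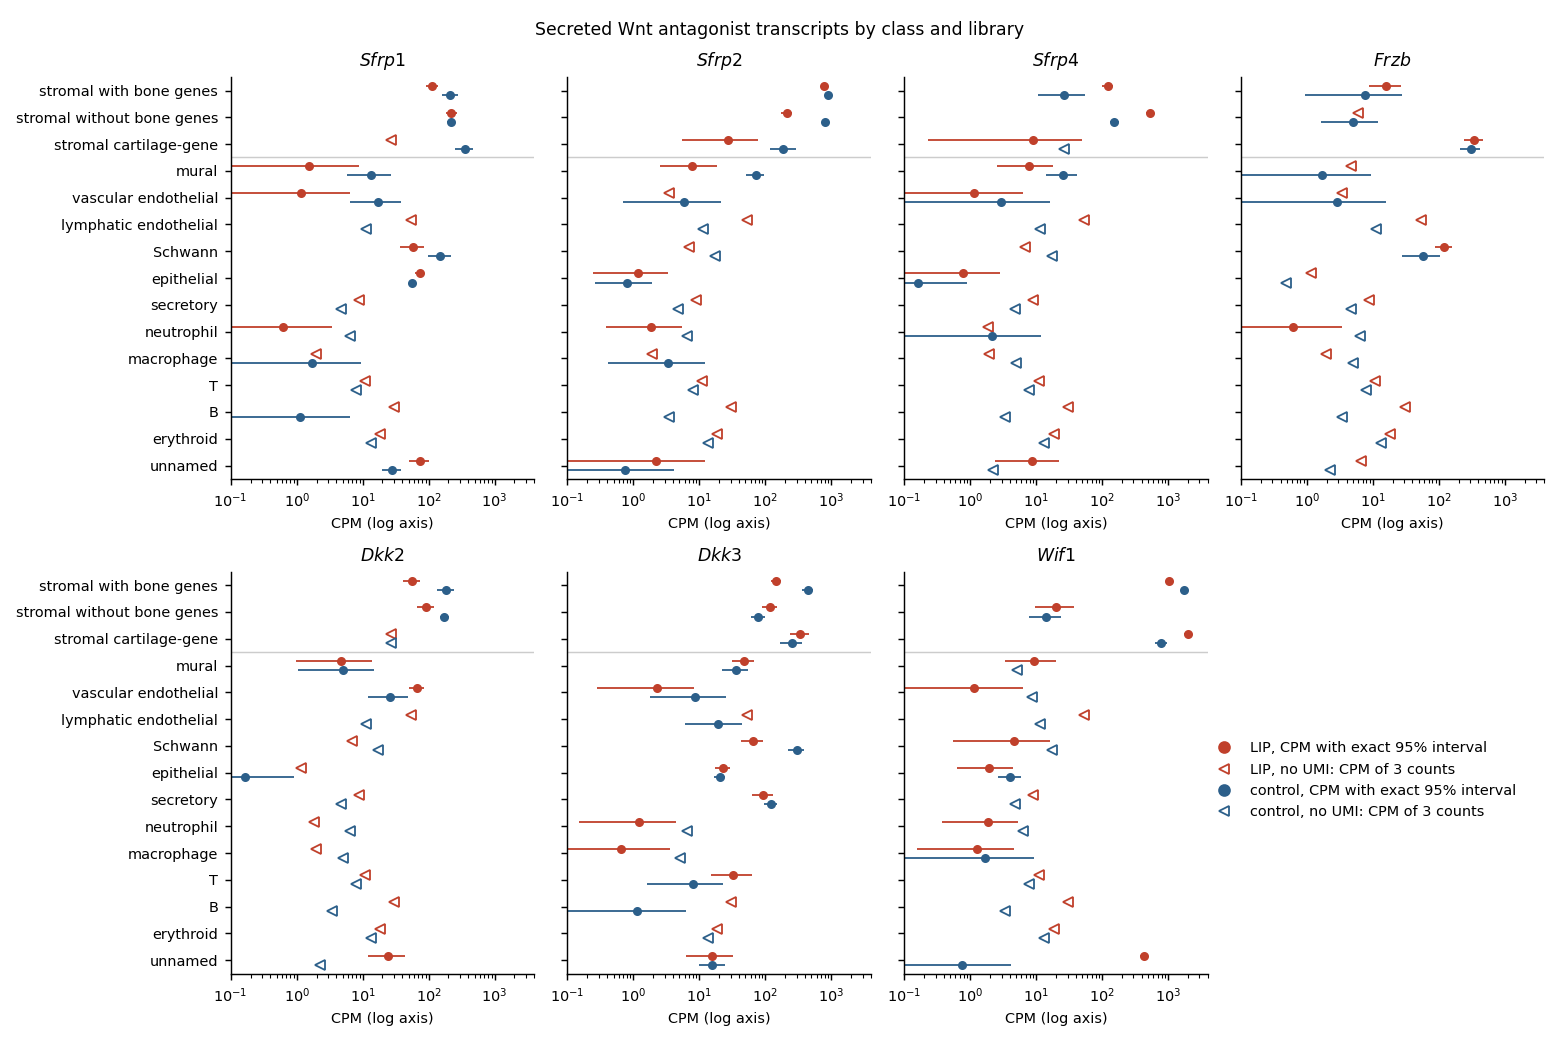
CPM of each gene (log axis) in each class of cells, the stromal groups above the grey line. Each point sums the UMIs of 1 class in 1 library and carries its exact 95% interval, and open triangles mark classes without a UMI at the CPM of 3 counts. *Wif1* was at 1041 and 1743 CPM in stromal cells with bone genes and at 20.1 and 14.2 CPM in those without, and *Frzb* was highest in cartilage-gene cells, at 340 and 305 CPM.

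*Wif1* (ENSMUSG00000020218), which binds Wnt proteins through its WIF domain, was the gene that differed most between stromal cells with and without bone genes. In the LIP library its level was 1041 CPM (974–1111) with and 20.1 CPM (9.64–37.0) without bone genes, a 51.8-fold difference. In the control library it was 1743 CPM (1586–1911) with and 14.2 CPM (7.75–23.8) without bone genes, a 123-fold difference. The log2 ratios were 5.69 (4.81 to 6.76) and 6.94 (6.18 to 7.82).

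*Wif1* was found in 28 of 32 LIP and 19 of 20 control cells with bone genes, at a median of 602 and 771 CPM per cell and at most 5035 and 12671 CPM. Without bone genes it was found in 3 of 25 and 4 of 92 cells. The few UMIs there came largely from single cells, 8 of 10 in the LIP library and 10 of 14 in the control library. In neutrophil-like cells, which should lack the transcript, 3 of 324 LIP cells and 0 of 52 control cells held a *Wif1* UMI, at median depths of 3867 and 6529 UMIs against 25628.5 and 12931 UMIs with bone genes. In epithelial-like cells, at 23928.5 and 27531 UMIs, 5 of 112 and 6 of 225 held one. After cells were thinned to 2000 UMIs, *Wif1* was left in 53.1% of LIP and 75% of control cells with bone genes. Without bone genes the shares were 8% and 2.33%. Cells with fewer UMIs were left out, so the control share without bone genes was of 86 of the 92 cells.

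Within the bone-gene sub-cluster *Wif1* was found in cells with and without bone matrix transcripts. LIP cells with at least 5 UMIs of *Ibsp*, *Bglap* and *Bglap2* together, a division chosen after the data were seen, all held *Wif1* (15 of 15), at 609 CPM (541–684). The other 17 held it in 13 cells, at 1541 CPM (1423–1667). In the control library 16 of the 17 cells below this limit held it, at 1948 CPM (1765–2145), as did all 3 above it, at 823 CPM (586–1126). One of these 3 held 37 of their 39 *Wif1* UMIs, and the median of the 3 was 73.8 CPM. The size of the *Wif1* ratio changed with the way the stroma was divided. When cells were divided one by one by the presence of at least 2 bone-list genes, the LIP log2 ratio was 0.95, under 2-fold, and the control log2 ratio was 3.62. That division placed 4 LIP and 7 control cells of the bone-gene sub-cluster among those without bone genes, and all of them held *Wif1*, 171 and 72 UMIs. At a limit of 5% mitochondrial UMIs the LIP log2 ratio was 2.17, and with 15 dimensions in the clustering it was 3.40. Under either setting the cells were clustered again, so the cells in each group changed too.

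Cartilage-gene cells likewise held *Wif1*, in 7 of 7 LIP cells at 2016 CPM (1761–2297) and in 10 of 11 control cells at 781 CPM (626–964). The lowest LIP cell of this group, at 616 CPM, lay above the highest fibroblast-like cell of that library, at 576 CPM. In the control library the groups overlapped. A cartilage-gene cell there held no *Wif1*, and the highest fibroblast-like cell, at 734 CPM, lay above the cartilage-gene median of 695 CPM. The cartilage label was also uneven, as a list of 13 cartilage genes summed to 30866 CPM in LIP and 4473 CPM in control cells of this group. Over all named classes outside the stroma the highest level of *Wif1* was 9.38 CPM (3.44–20.4), in LIP mural-like cells.

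**Figure D2:**
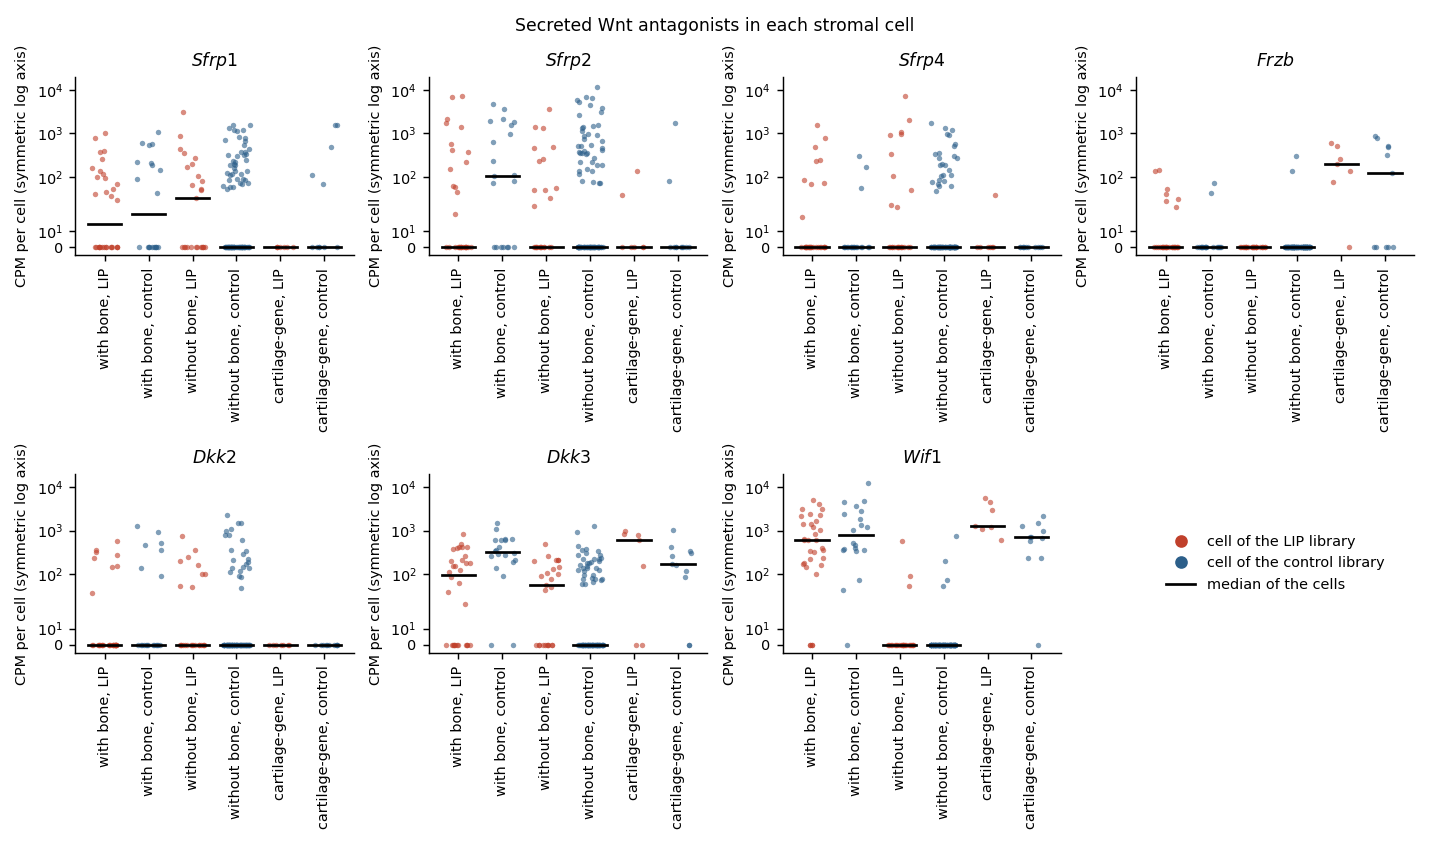
CPM of each gene in every stromal cell (symmetric log axis), by sub-cluster and library, with the median of the cells as a black line. *Wif1* was found in 28 of 32 and 19 of 20 cells with bone genes but in 3 of 25 and 4 of 92 without, whereas *Sfrp2* was found in 14 of 32 and 13 of 20 with and in 12 of 25 and 43 of 92 without.

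The SFRP genes showed other patterns. *Sfrp4* (ENSMUSG00000021319) was higher without bone genes in both libraries, *Sfrp2* (ENSMUSG00000027996) was higher with bone genes in the LIP library only by the 2-fold criterion, and *Sfrp1* (ENSMUSG00000031548) met this criterion in neither. *Sfrp4* was at 123 CPM (101–148) with and 525 CPM (463–592) without bone genes in the LIP library, and at 27.0 CPM (10.9–55.6) and 154 CPM (130–180) in the control library. The log2 ratios were -2.10 (-2.43 to -1.77) and -2.51 (-3.85 to -1.43). Cells positive for *Sfrp4* were a minority in every group, 9 of 32 and 3 of 20 with and 10 of 25 and 26 of 92 without bone genes, and the median cell had none. One LIP cell held 34.1% of the UMIs without bone genes, at 7385 CPM. With cells divided one by one by bone-list genes the log2 ratios of *Sfrp4* were -0.03 and -0.07. The 8 LIP and 12 control fibroblast-like cells that this division counted among those with bone genes held 146 and 34 *Sfrp4* UMIs. At a limit of 5% mitochondrial UMIs the LIP ratio was -0.93, under 2-fold.

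*Sfrp2* was at 779 CPM (722–840) with and 211 CPM (173–256) without bone genes in the LIP library, a log2 ratio of 1.88 (1.59 to 2.19). A single cell held 268 of the 679 UMIs with bone genes and another held 233, so the LIP level rested largely on them. No alternative left out both. Without the cell richest in *Sfrp2* in each group the log2 ratio was 1.54. Over all alternatives it lay between 1.07, with every cell weighted the same, and 2.84. In the control library the levels were 906 CPM (794–1030) and 814 CPM (759–873), a log2 ratio of 0.15 (-0.06 to 0.37). The share of cells with *Sfrp2* did not follow the LIP ratio, as 14 of 32 with and 12 of 25 without bone genes held it. *Sfrp1* was at 112 CPM (91.3–137) and 221 CPM (182–267) in the LIP library and at 212 CPM (160–276) and 222 CPM (193–253) in the control library, with log2 ratios of -0.98 (-1.38 to -0.57) and -0.07 (-0.52 to 0.37). The LIP ratio of *Sfrp1* lay at the 2-fold limit and passed it under several alternatives, at most at -1.80 with 15 dimensions. *Sfrp1* was found in 16 of 32 and 13 of 25 LIP cells and in 10 of 20 and 42 of 92 control cells.

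*Frzb* (ENSMUSG00000027004), first known from cartilage, had its highest level in the cartilage-gene cells. It was at 340 CPM (241–467) in the LIP library and 305 CPM (211–427) in the control library, in 6 of 7 and 6 of 11 cells. Of its LIP UMIs, however, Schwann-like cells held 49.5% and the cartilage-gene cells 36.2%. In LIP cells with bone genes it was at 16.1 CPM (8.78–27.0), from 14 UMIs in 7 cells of which 1 held 7. In LIP cells without bone genes no UMI was found, which allows up to 7.42 CPM. With this sum of 0 set at 3 counts (6.03 CPM), the level with bone genes was 2.66-fold higher. The log2 ratio was 1.41, with an exact lower limit of 0.92, but the 14 UMIs were under the 50 required. Without the cell that held 7 the level was 8.50 CPM, and the log2 ratio was 0.38. That alternative also left out 1 cell without bone genes, so 3 counts stood at a CPM above 6.03. At a limit of 5% mitochondrial UMIs the direction turned (16.8 against 35.5 CPM, a log2 ratio of -1.08). The cells were clustered again there, and the LIP groups became 24 cells with and 29 without bone genes. The control library gave 2 and 5 UMIs, too few to compare. *Dkk3* was also found in the cartilage-gene cells, at 332 CPM (233–457) in 5 of 7 LIP cells and 251 CPM (167–363) in 9 of 11 control cells. *Sfrp1* was not found in the LIP cartilage-gene cells, which allows up to 33.1 CPM. In those of the control library it was at 350 CPM (249–479), where 5 of 11 cells held it and 1 had 46.2% of the UMIs. *Dkk2* was found in no cartilage-gene cell of either library.

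*Dkk3* (ENSMUSG00000030772) was higher with bone genes in the control library, at 440 CPM (363–528) in 18 of 20 cells against 78.0 CPM (61.6–97.5) in 35 of 92, a log2 ratio of 2.49 (2.06 to 2.93). In the LIP library it was at 147 CPM (123–175) in 20 of 32 and 117 CPM (88.5–151) in 15 of 25, a log2 ratio of 0.33 (-0.13 to 0.81). With cells divided one by one the control ratio was 0.40, under 2-fold. *Dkk2* (ENSMUSG00000028031) was at 56.2 CPM (41.6–74.3) and 90.5 CPM (66.0–121) in the LIP library and at 181 CPM (133–241) and 173 CPM (148–201) in the control library. Its log2 ratios of -0.69 (-1.30 to -0.07) and 0.07 (-0.43 to 0.54) were under 2-fold, although the LIP ratio was -1.36 with 15 dimensions and -1.14 with no upper limit on UMIs and genes. It was found in 8 of 32 and 9 of 25 LIP cells and in 7 of 20 and 23 of 92 control cells.

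In all, 2 of the 6 genes with at least 50 UMIs were at least 2-fold higher with bone genes in the LIP library (*Sfrp2* and *Wif1*) and 1 was lower (*Sfrp4*). The place of *Sfrp2* in this count rested largely on single cells with 268 and 233 of its 679 UMIs. Over the 3789 genes with as many UMIs, 6.49% were higher and 10.7% were lower (17.2% in either direction). In the control library 2 of 6 were higher (*Dkk3* and *Wif1*) and 1 was lower (*Sfrp4*), against 5.23% and 11.2% of 3861 genes (16.4% in either direction). The median log2 ratio of the genes compared was -0.18 and 0.11 in the LIP and control library, and that of all genes was -0.12 and -0.07.

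**Figure D3:**
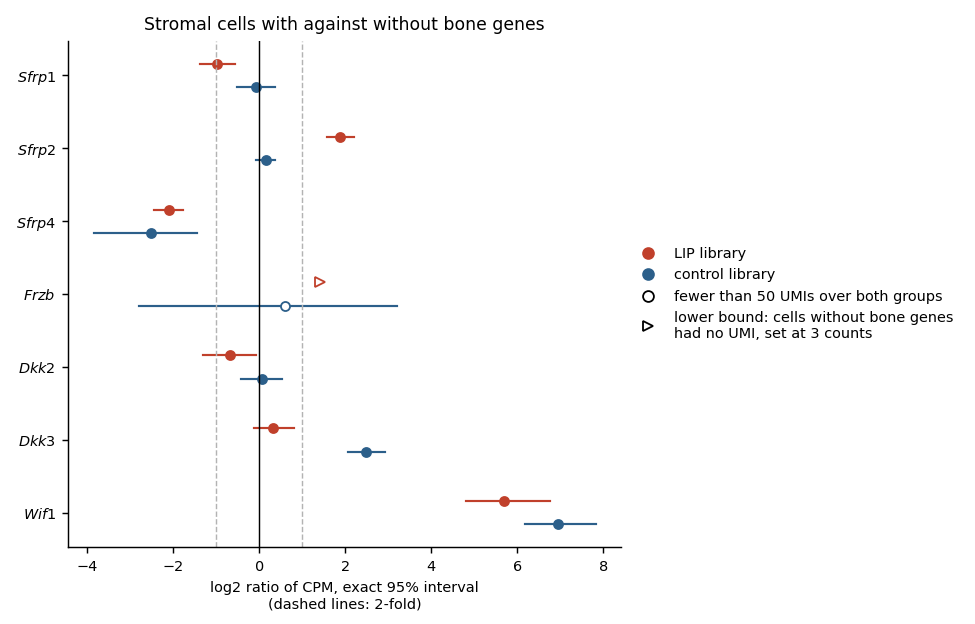
The log2 ratio of CPM in stromal cells with against without bone genes, for each gene and library, with exact 95% intervals, and dashed lines mark 2-fold. *Wif1* (5.69 and 6.94) and *Sfrp4* (-2.10 and -2.51) lay beyond 2-fold in the same direction in both libraries, *Sfrp2* in the LIP library and *Dkk3* in the control library only. The LIP ratio of *Sfrp2* rested largely on single cells with 268 and 233 of the 679 UMIs with bone genes. The triangle marks *Frzb* in the LIP library, where cells without bone genes had no UMI and were set at 3 counts.

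Inside the bone-gene sub-cluster of the LIP library the genes divided along bone matrix transcripts. The 15 cells with at least 5 bone matrix UMIs held *Sfrp4* in 8 cells, at 212 CPM (172–258), and the 17 others held it in 1 cell, at 19.8 CPM (8.56–39.1), a log2 ratio of 3.42 (2.38 to 4.67). One cell had 58.6% of these UMIs, and without it 95.2 CPM remained. *Dkk3*, *Sfrp1* and *Dkk2* ran the opposite way. *Dkk3* was at 19.2 CPM (8.80–36.5) in the 15 cells and at 295 CPM (244–353) in the 17, in 4 and 16 cells, a log2 ratio of -3.94 (-5.10 to -2.96). *Sfrp1* was at 23.5 CPM (11.7–42.1) and 216 CPM (173–266), a log2 ratio of -3.20 (-4.25 to -2.29). *Dkk2* was in none of the 15 cells and in 8 of the 17, at 121 CPM (89.8–161). With the sum of 0 set at 3 counts its log2 ratio was -4.24, with an exact upper limit of -3.89. *Sfrp2* was found in 2 of the 15 and in 12 of the 17 cells. One of those 2 held 268 of the 269 UMIs, at 7245 CPM, and was also the cell with the most *Sfrp4*, 58 UMIs.

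The same 17 cells were richer in *Aspn* (2314 against 36.3 CPM), *Tnmd* (558 against 21.4 CPM) and *Postn* (9724 against 1646 CPM), genes known from tendon and ligament. The cells differed in depth, at a median of 29934 UMIs with and 22517 UMIs without bone matrix transcripts. The part of depth in the differences between these cells was not tested. The genes were also followed within single cells of the LIP sub-cluster. All 8 cells with *Dkk2* and all 14 with *Sfrp2* also held *Dkk3*, which was in 20 of the 32 cells. From the number of cells holding each gene, 5 and 8.75 such cells would be expected without association. No cell held *Sfrp4* together with *Dkk2* or *Frzb*, where 2.25 and 1.97 would be expected. In the control library the 7 cells with *Dkk2* also held *Dkk3*, which was in 18 of 20, with 6.3 expected. The 3 control cells with *Sfrp4* held neither *Dkk2* nor *Frzb*, with 1.05 and 0.3 expected. These expected numbers are too low for the absences to be read as exclusion.

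**Figure D4:**
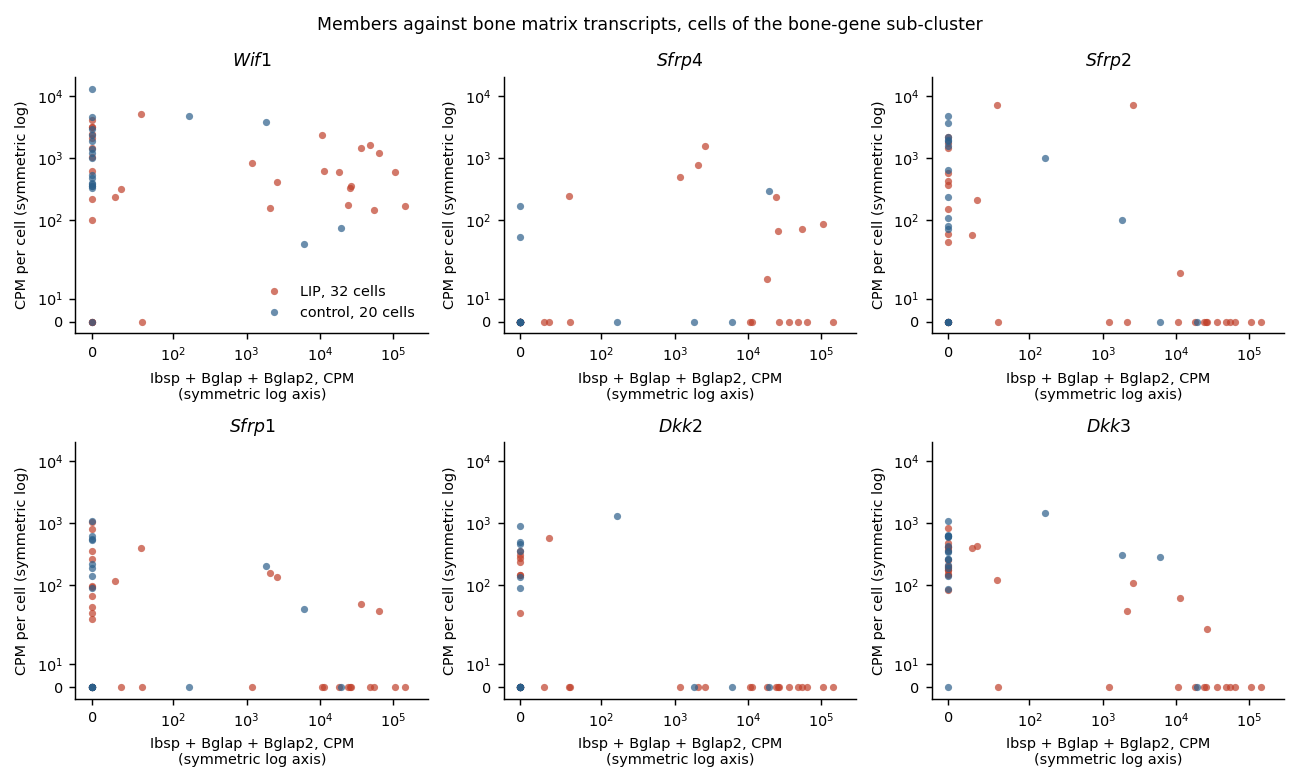
CPM of 6 of the genes in each cell of the bone-gene sub-cluster against the summed CPM of *Ibsp*, *Bglap* and *Bglap2* (both axes symmetric log), for 32 LIP and 20 control cells. Of the 15 LIP cells with at least 5 bone matrix UMIs 0 held *Dkk2* and 15 held *Wif1*, and of the 17 below 8 held *Dkk2* and 1 held *Sfrp4*.

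The fibroblast-like cells were also uneven. At a finer resolution, with its parts described apart after the data were seen, they formed a part led by *Inmt* (15 LIP and 70 control cells) and a part led by *Apod* (9 and 22 cells). *Sfrp2* was at 236 CPM (189–290) and 904 CPM (842–968) in the *Inmt* part, and in the *Apod* part at 0 in LIP cells and 20.1 CPM (2.43–72.4) in control cells. *Dkk2* had no UMI in the *Apod* part of either library, and in the *Inmt* part it was at 107 CPM (77.0–146) and 193 CPM (165–224), while *Sfrp4* was at 649 CPM (571–735) and 171 CPM (145–201) there. *Wif1* was found in none of the 15 LIP and 4 of the 70 control cells of the *Inmt* part. *Sfrp1* was at 275 CPM (225–333) and 240 CPM (209–274) in the *Inmt* part and at 47.9 CPM (15.6–112) and 60.2 CPM (22.1–131) in the *Apod* part. The 9 LIP cells of the *Apod* part had a median of 11927 UMIs and the 22 control cells 4260 UMIs, against 23958 and 12884.5 UMIs in the *Inmt* part.

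The LIP and control libraries were then compared within each group of stromal cells. Without bone genes, *Sfrp4* was 3.41-fold higher in the LIP library (525 against 154 CPM), a log2 ratio of 1.77 (1.47 to 2.07), and *Sfrp2* was 3.86-fold lower (211 against 814 CPM), a log2 ratio of -1.95 (-2.26 to -1.65). The LIP level of *Sfrp4* rested largely on single cells with 89, 74, 39 and 31 of the 261 UMIs. It was found in 10 of 25 LIP and 26 of 92 control cells, and after thinning to 2000 UMIs in 16% and 12.8%. *Sfrp2* was found in 12 of 25 LIP and 43 of 92 control cells, and over all alternatives its log2 ratio lay between -2.70 and -1.20, the latter with every cell weighted the same. In the *Inmt* part alone the log2 ratios were 1.92 (1.63 to 2.22) and -1.94 (-2.27 to -1.62). That part held 248 of the 261 LIP and all 152 control UMIs of *Sfrp4*. It also held 90 of the 105 LIP and 802 of the 804 control UMIs of *Sfrp2*. The like size of the ratios was therefore largely given in advance. For *Sfrp4* the log2 ratio was 0.64, under 2-fold, with at most 5% mitochondrial UMIs. *Sfrp1* was at 221 and 222 CPM (log2 ratio -0.00, -0.35 to 0.33), while *Dkk2* (-0.94, -1.44 to -0.46) and *Dkk3* (0.58, 0.06 to 1.09) were under 2-fold. *Dkk2* passed it under several alternatives, at most at -1.20 without the richest cell. These counts of 1 higher and 1 lower of 5 genes stood against 2.73% and 4.44% of 4437 genes (7.17% in either direction). Markers of Schwann cells also differed between these groups, as the 12 genes of that list summed to 1636 CPM in LIP and 692 CPM in control cells, and their part in the differences was not tested.

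With bone genes, *Sfrp4* was higher in the LIP library as well, 4.55-fold (123 against 27.0 CPM), a log2 ratio of 2.19 (1.09 to 3.53), from 107 UMIs in 9 cells and 7 UMIs in 3. *Dkk2* was 3.22-fold lower (56.2 against 181 CPM; -1.69, -2.30 to -1.08) and *Dkk3* 2.99-fold lower (147 against 440 CPM; -1.58, -1.96 to -1.20). *Sfrp1* (-0.91, -1.41 to -0.41), *Wif1* (-0.74, -0.91 to -0.58) and *Sfrp2* (-0.22, -0.43 to 0.00) were under 2-fold. For *Sfrp2*, single cells held 268 and 233 of the 679 LIP UMIs. Its log2 ratio was -0.57 without the richest cell of each group, and the ratio without both LIP cells was not computed. After cells were thinned to 2000 UMIs, *Sfrp2* was left in 25% of LIP and 55% of control cells with bone genes. The like levels were thus not matched by like shares of cells. *Sfrp1* passed 2-fold with 15 dimensions (-1.76) and in a strict division added after the data were seen, which kept bone-gene cells with at least 2 bone-list genes and fibroblast-like cells with fewer (-1.63), and *Wif1* in that division (-1.33) and at 5% mitochondrial UMIs (-1.06). The counts were thus 1 higher and 2 lower of 6 genes, against 5.85% and 8.06% of 3127 genes (13.9% in either direction), and the median log2 ratio was -0.83 against -0.08 over all genes.

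The makeup of this sub-cluster differed between the libraries, since 15 of 32 LIP but 3 of 20 control cells had at least 5 bone matrix UMIs. The 13 genes of a cartilage list summed to 888 CPM in LIP cells with bone genes (found in 22 of 32 cells) and 150 CPM in control cells (8 of 20). The 17 genes of the fibroblast list summed to 7894 and 13783 CPM. The part of these markers in the differences was not tested. Among the 17 LIP and 17 control cells below that limit, none of the 7 genes with at least 50 UMIs reached 2-fold. *Dkk3* was at 295 CPM in LIP and 491 CPM in control cells, a log2 ratio of -0.73 (-1.13 to -0.34), and *Dkk2* at 121 and 222 CPM, a ratio of -0.87 (-1.48 to -0.26). *Wif1* was at 1541 and 1948 CPM (-0.34, -0.52 to -0.15), *Sfrp2* at 1016 and 1104 CPM (-0.12, -0.35 to 0.12) and *Sfrp1* at 216 and 245 CPM (-0.19, -0.70 to 0.34). One LIP cell held 56.8% of the *Sfrp2* UMIs, and without it 478 CPM remained. That level cannot be set against the 1104 CPM of the control cells, which kept their richest cell with 24.4% of the *Sfrp2* UMIs. *Sfrp4* had 8 and 3 UMIs in these cells, whereas 99 of its 107 LIP UMIs lay in the cells with bone matrix transcripts. With cells divided one by one by bone-list genes the LIP to control ratios of *Dkk3* and *Dkk2* with bone genes were -0.43 and -0.91, under 2-fold. *Postn* was 2.19-fold higher in the 17 LIP than in the 17 control cells below the limit of bone matrix UMIs.

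**Figure D5:**
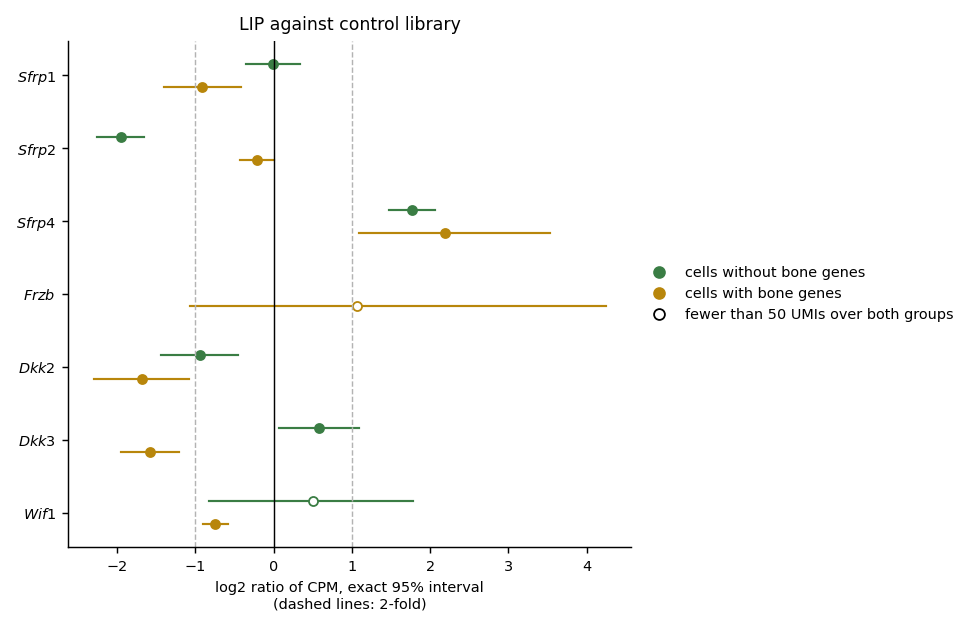
The log2 ratio of CPM in the LIP against the control library, for stromal cells without and with bone genes, with exact 95% intervals and dashed lines at 2-fold. *Sfrp4* was higher in the LIP library in both groups (1.77 and 2.19), *Sfrp2* was lower without bone genes (-1.95), and *Dkk2* and *Dkk3* were lower with bone genes (-1.69 and -1.58). The *Sfrp2* ratio with bone genes (-0.22) rested largely on single LIP cells with 268 and 233 of the 679 UMIs. Single LIP cells without bone genes held 89, 74, 39 and 31 of the 261 *Sfrp4* UMIs.

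Outside the stroma the genes differed in the classes that held them. *Sfrp1* was found in epithelial-like cells at 73.0 CPM (63.0–84.3) in the LIP and 56.9 CPM (51.1–63.2) in the control library, in 52 of 112 and 111 of 225 cells, a class that held 41.1% and 47.2% of its UMIs. In Schwann-like cells it was at 57.3 CPM (37.1–84.5) and 149 CPM (97.6–219). *Frzb* was likewise found in Schwann-like cells, at 119 CPM (89.0–156) in 30 of 102 LIP cells and 57.5 CPM (27.6–106) in 5 of 37 control cells. Its order was cartilage-gene cells, Schwann-like cells and then cells with bone genes in both libraries, and only the intervals of the last 2 in the control library overlapped.

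*Dkk2* was found in vascular endothelial-like cells, at 65.6 CPM (49.7–85.0) in 14 of 79 LIP cells and 26.1 CPM (11.9–49.5) in 5 of 48 control cells. In the LIP library its interval overlapped those of both stromal groups with *Dkk2*, whereas in the control library the stromal levels were higher. *Dkk3* was found in secretory cells at 91.3 CPM (62.0–130) and 122 CPM (96.1–152), in 10 of 11 and 15 of 16 cells. Mural-like cells had 46.9 CPM (31.6–66.9) and 35.5 CPM (22.0–54.3) of *Dkk3*, and epithelial-like cells 22.5 CPM (17.1–29.1) and 20.3 CPM (16.9–24.1). In Schwann-like cells it was at 64.1 CPM (42.6–92.7) and 299 CPM (223–392), the latter with 90.4% of its UMIs in 1 cell. *Sfrp2* reached 71.1 CPM (51.2–96.1) in control mural-like cells, from 5 of 46 cells, and *Sfrp4* 25.4 CPM (14.2–41.9) there, from 2 cells. In neutrophil-like and macrophage-like cells of either library and in control B cells no gene exceeded 3.37 CPM. The 20 LIP B cells held no UMI of any of the genes, which allows up to 37.3 CPM for each.

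Other genes with a like pattern were sought over 20 groups of at least 20 cells, each a class in 1 library, by the correlation of log2(CPM + 10) among 9839 genes. Cartilage-gene cells were too few to enter. The groups share their library and its depth, and the correlations are given as a description. *Wif1* was most like *Tnn* (r = 0.988), which encodes tenascin-W, *Smpd3* (r = 0.961), a sphingomyelinase gene of the bone list, and *1500015O10Rik* (r = 0.959). *Sfrp2* was most like *Masp1* (0.984), *Six2* (0.979) and *Prrx2* (0.978), of which the latter encode homeobox transcription factors. *Sfrp4* was most like *Medag* (0.954), *Dpt* (0.953) and *Dnm1* (0.935), and *Sfrp1* most like *Peg3* (0.945), *Efs* (0.939) and *Efemp1* (0.937). *Dkk2* was closest to *Bmp4* (0.958), *Pcsk5* (0.950) and *Hmcn1* (0.928), *Dkk3* to *Col16a1* (0.947), *Casc4* (0.926) and *Trp53i13* (0.923), and *Frzb* to *Mlip* (0.968) and *Sema3b* (0.949). Among the genes themselves *Sfrp2* and *Sfrp4* were most alike (0.861), followed by *Sfrp2* and *Dkk2* (0.844) and *Sfrp1* and *Dkk3* (0.843), and *Sfrp4* and *Frzb* were least alike (0.00706).

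Further genes of the pathway were described from a list of 73, of which 16 had at least 50 UMIs in the LIP stromal cells and 19 in the control stromal cells. With bone genes 3 were at least 2-fold higher and 4 lower in the LIP library, and 3 were higher and 2 lower in the control library. These were 43.8% and 26.3% of the list genes with enough UMIs, beside 17.2% and 16.4% of all genes. Among ligands, *Wnt5a*, known for non-canonical signalling, was higher with bone genes in both libraries (474 against 131 CPM and 655 against 84.1 CPM), and it was the only ligand with enough UMIs. Among target genes, *Nkd2*, an inhibitor induced by the pathway, was higher in both (75.7 against 24.1 and 77.1 against 35.5 CPM), *Wisp1* was higher in the LIP library (202 against 40.2 CPM) and *Wisp2* in the control library (594 against 155 CPM). The transcription factor gene *Tcf7l2* was lower with bone genes in both (82.6 against 241 and 50.1 against 183 CPM).

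Of 5 receptor genes with enough UMIs in the LIP library, *Fzd2* (37.9 against 127 CPM) and *Lgr5*, which encodes an R-spondin receptor, were lower with bone genes. *Lgr5* had 1 UMI with and 62 without bone genes, a log2 ratio of -6.76 (-12.1 to -4.23). *Tle1* was also lower in the LIP library (21.8 against 62.3 CPM) and *Tcf7l1* in the control library (23.1 against 49.6 CPM, from 6 and 49 UMIs). Of the 14 other antagonist genes of the list 2 and 3 had enough UMIs, and 0 of these differed 2-fold. Between libraries, *Lgr5* (125 against 38.5 CPM) and *Wnt9a* (66.3 against 22.3 CPM) were higher in LIP cells without bone genes, and *Rspo1*, which encodes an R-spondin, was lower in LIP cells without (38.2 against 82.0 CPM) and with bone genes (33.3 against 88.7 CPM). With bone genes *Wisp1* was higher (202 against 50.1 CPM) and *Wisp2* lower (205 against 594 CPM) in the LIP library. The median log2 ratio of the list was 0.24 and 0.31 with against without bone genes in the LIP and control library, beside -0.12 and -0.07 over all genes, and between libraries it was 0.18 without and -0.32 with bone genes, beside -0.02 and -0.08.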

How the data were processed

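The data were 2 10x Genomics scRNA-seq libraries. The authors deposited raw UMI counts per gene and cell barcode, made with Cell Ranger (3.1.0 in the matrix headers) on mm10, with no normalization. Whether counting used strand is not given in the sources used here. All further steps were run here.

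Barcodes with 200 to 7500 genes, at most 60000 UMIs and at most 10% mitochondrial (mt-) UMIs were kept, 936 of 1212 in the LIP and 883 of 1169 in the control library. Libraries were integrated in Seurat 5.3.0 (R 4.3.3) from 2000 variable features, with the 80 member and Wnt genes held out, and clustered with 30 dimensions at resolution 0.1 (13 clusters), then at 0.2 within clusters (25 sub-clusters). A sub-cluster was named from 21 marker lists when at least 3 markers were in 25% of its cells and over 2-fold higher, 10 CPM being added. No name was given to a sub-cluster of low depth with no marker of the list among its 10 leading genes. Names were rebuilt here and 2 sub-clusters stayed unnamed. Doublets were not removed, and Scrublet (scanpy 1.11.5) marked 1 and 4 cells, too few to be relied on.

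UMIs were summed per class and library and scaled to CPM (Python 3.11.15, numpy 2.4.6, scipy 1.17.1, pandas 2.3.3, matplotlib 3.10.9). Levels carry exact Poisson, shares exact Clopper-Pearson and ratios exact conditional intervals at 95%, which cover counting error only. A gene counted as different at 2-fold or more with at least 50 UMIs over both groups. A sum of 0 was set at 3 counts over the group. With 1 library per condition no test was possible. Intervals were tested on simulated sums drawn from the counting model behind them. The simulation had no spread between cells, so it could not show how the intervals hold for these data. The 7 genes were all named, and other Wnt genes when they met the 2-fold criterion, and as like in pattern the 3 genes of highest Pearson correlation among those with at least 200 UMIs, of which 1 is not reported here. The members and lists were chosen with earlier results of these data known.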

Additional observations from a re-analysis of the deposited data

Results flagged for a closer look

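*Dkk3* differed between the LIP and control libraries in opposite directions in the 2 groups of stromal cells, at a log2 ratio of 0.58 without and -1.58 with bone genes. The ratio of 0.58 was under 2-fold. With the stroma divided cell by cell by bone-list genes the ratios were -0.12 and -0.43, in the same direction. The difference between the ratios was not tested, as each group had 1 library per condition.

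The 276 LIP and 286 control barcodes that the quality limits removed also held the genes. *Sfrp4* was at 18.0 CPM (13.9–22.8) in the LIP and 0.652 CPM (0.0790–2.36) in the control barcodes. *Wif1* was at 35.9 CPM (30.04–42.6) in the LIP and 5.22 CPM (2.98–8.48) in the control barcodes. *Dkk3* was at 29.4 and 28.4 CPM.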

How the results depend on the processing

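Of 104 alternative values for the numbers of the 7 genes that differed 2-fold, 86 stayed within 1.5 times the main number, and of 364 alternative member ratios 290 moved by less than their interval, and 0 reversed a called direction. In the LIP library 1 gene was higher without bone genes. This number was 2 at a sub-cluster resolution of 0.4, 2 with the libraries merged without integration, 2 with every cell weighted the same, 3 with 15 dimensions, 3 with no upper limit on UMIs and genes, and 0 at 5% mitochondrial UMIs. In cells without bone genes 1 gene was lower in the LIP library, and this was 2 at resolution 0.4, at 5% mitochondrial UMIs, in the strict division and without the cell richest in the gene, while the number higher there went from 1 to 2 with 15 dimensions. Dividing the stroma cell by cell, the numbers higher with bone genes went from 2 to 1 in either library, those higher without from 1 to 0 in either, those higher and lower in LIP cells without bone genes from 1 to 2, and those lower in LIP cells with bone genes from 2 to 0. The *Dkk2* ratio of LIP to control cells with bone genes was -0.998, under 2-fold, in the strict division, which keeps cells on which both divisions agreed and was added after seeing the data. The cause of these changes was not tested. No paired analysis was possible because each condition had 1 library, and no replicate could be left out. Groups of 7 to 92 cells limit the precision, and single cells held up to 54.2% of the *Sfrp4* UMIs in LIP cells with bone genes.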

Other observations

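One LIP cell in an unnamed sub-cluster of cycling cells held all 196 *Wif1* UMIs of the 55 unnamed LIP cells, among its 41511 UMIs. It also held 13 UMIs of *Sfrp1*, 4 of *Sfrp4*, 2 of *Dkk3*, 1596 of *Col1a1*, 85 of *Bglap*, 0 of *Ibsp* and 6 of *Runx2*, the master transcription factor gene of osteoblasts. The proliferation genes *Top2a* and *Mki67* had 38 and 16 UMIs, and the epithelial keratin genes *Krt5* and *Krt14* had 0 and 2. This cell was chosen after its values were seen and entered none of the stromal groups.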
